A study of Mus musculus with 2 samples.

Results

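The genes described here were 38 genes of T, natural killer (NK) and B lymphocytes: antigen receptor and coreceptor chains, receptor-proximal kinases, costimulatory and cytokine receptors, cytotoxic effectors and lineage factors. They were found on the array by gene name, and all 38 had a probe among the 26571 genes represented. A gene counted as measured when HMPA or adenine alone gave 1 of its probes a signal well above background on array 1 and again on array 2. That held for 32 of the 38 and for 16698 genes in all. The RNA came from whole kidney of male CD-1 mice, an outbred stock, that were 7 weeks old when their diets began. The HMPA condition was an AIN-93G diet with 0.2% adenine and 2% HMPA by weight, and the control condition was the same diet with 0.2% adenine alone, each for 1 week. HMPA is a phenolic acid. Adenine was in both diets, no kidney without adenine was on the arrays, and the sample titles give 12 weeks of age and 5 mice without saying whether RNA was pooled. The 2 arrays carried the same pair of conditions with the dyes exchanged and were taken as 1 RNA sample per condition, so no p-value was computed and the spread between animals is unknown.

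T cells recognise antigen through a receptor whose signal passes through the CD3 chains to the kinases LCK and ZAP70, with CD4 or CD8 as coreceptor. B cells use an antigen receptor that signals through CD79A and CD79B to SYK, the adaptor BLNK and the kinase BTK. NK cells and cytotoxic T cells kill with perforin and granzymes. A healthy kidney holds few lymphocytes, and they gather in the interstitium when tubules are injured. In RNA from a whole kidney, fewer lymphocytes and less RNA per lymphocyte cannot be told apart.

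With HMPA, 3 of the 32 measured lymphocyte genes were lower: Ltb, Il7r and Blnk. None was higher. The rule was one of size: the arrays had to average 2-fold or more, and neither could show less than 1.5-fold in that direction. These 3 genes are 9.38% of the measured members, and 7.72% of all measured genes met the rule as lower, so the share was near the background. For genes higher with HMPA the background was 6.64% of all measured genes. Most other ratios were small and below 0. Of the 32 genes, 29 (90.6%) had a mean log2 ratio below 0, against 53.9% of all measured genes. The median log2 ratio was −0.27 for the lymphocyte genes (−0.21 on array 1 and −0.31 on array 2) and −0.04 for all measured genes. The same sign held on both arrays for 28 genes below 0 and for 3 above 0, and only Ms4a1 had opposite signs. Since a gene could be measured through the adenine condition alone, the counts were repeated without that route. Of the 25 genes above background in both conditions on both arrays, 23 (92%) were below 0, against 52.6% of all such genes. With no filter 34 of all 38 were below 0, with a median of −0.15 against −0.002 for all genes. The share of all genes below 0 is not given for that setting. It counts genes at background, whose signs carry little information.

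**Figure D1:**
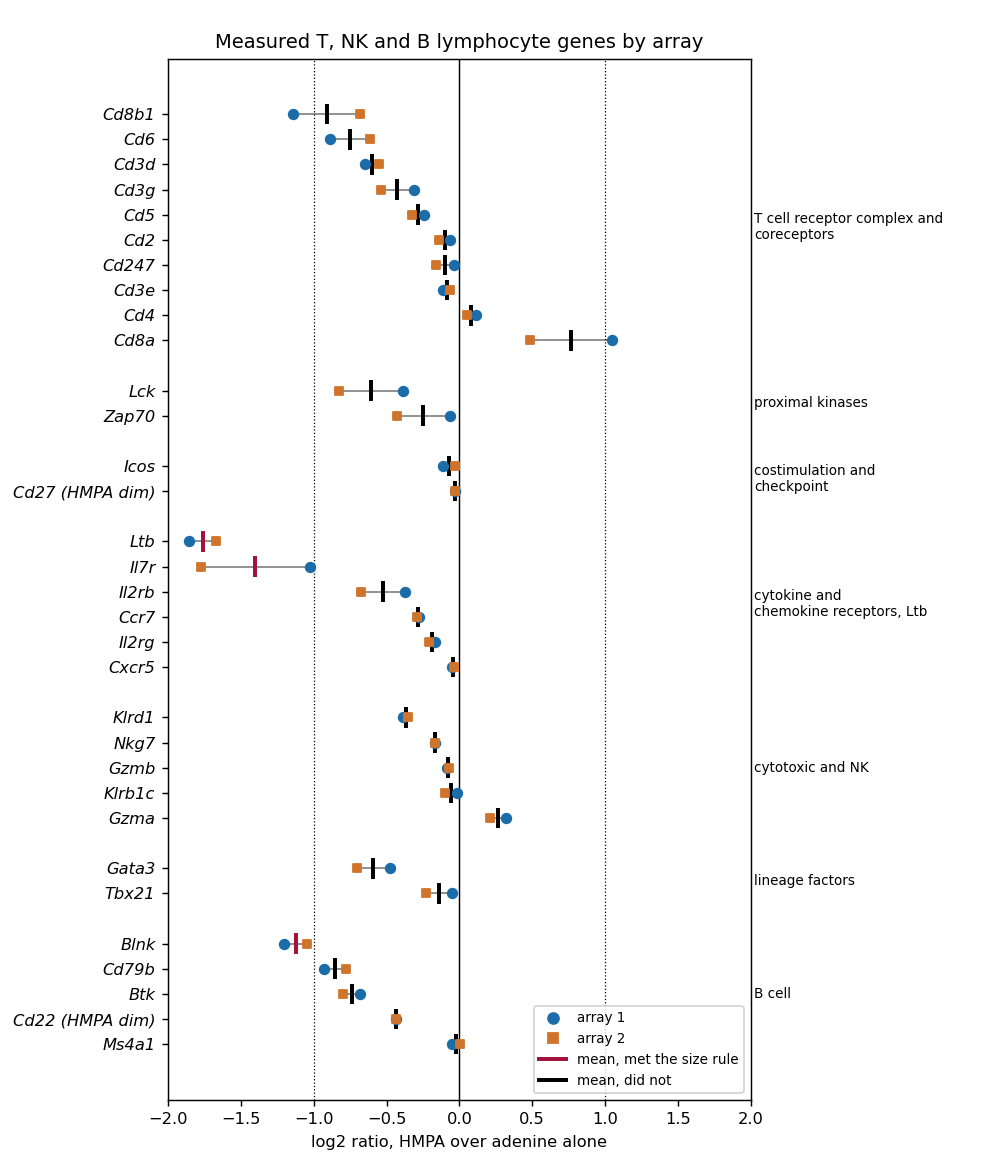
The log2 ratio of HMPA over adenine alone is plotted for each of the 32 measured lymphocyte genes, grouped by role, with 1 point per array and a bar at the mean. Dotted lines mark 2-fold. The mean bars of Ltb, Il7r and Blnk lie beyond the line at −1, and Cd8a lies furthest to the right at 0.76.

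The 3 lower genes are shown with the 250 bases that precede their annotated start, because genes that share a direction may or may not share promoter letters. The sequences are from RefSeq on build GRCm38.p6, read 5′ to 3′ on the strand of the gene. Promoters of 26 of the 38 genes were in that table. Both strands were searched for 4 motifs. These were the NF-kappaB motif, GAGGAA as 1 form of the site read by PU.1 and other ETS factors, TGTGGT for RUNX and the E-box CAGGTG. Capitals mark the matches, and no matches overlapped.
Ltb, chr17:35194257-35194506, plus strand: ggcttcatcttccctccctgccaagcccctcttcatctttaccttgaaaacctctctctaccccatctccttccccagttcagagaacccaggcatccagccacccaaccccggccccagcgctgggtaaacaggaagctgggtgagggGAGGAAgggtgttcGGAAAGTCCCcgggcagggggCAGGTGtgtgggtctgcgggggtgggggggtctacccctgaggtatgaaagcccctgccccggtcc
Il7r, chr15:9529877-9530126, minus strand: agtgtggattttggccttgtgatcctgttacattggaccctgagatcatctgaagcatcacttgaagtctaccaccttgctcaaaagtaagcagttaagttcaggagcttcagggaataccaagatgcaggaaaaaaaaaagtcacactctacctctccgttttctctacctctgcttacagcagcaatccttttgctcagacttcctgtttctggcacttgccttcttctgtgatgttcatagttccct
Blnk, chr19:40994222-40994471, minus strand: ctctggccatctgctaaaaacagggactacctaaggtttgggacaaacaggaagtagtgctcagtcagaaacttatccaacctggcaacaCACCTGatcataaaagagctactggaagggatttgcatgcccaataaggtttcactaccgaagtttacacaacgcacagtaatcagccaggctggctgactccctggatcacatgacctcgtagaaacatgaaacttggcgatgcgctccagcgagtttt
The Ltb window held the NF-kappaB motif on the opposite strand, beginning 87 bases before the start, together with GAGGAA at 101 bases and CAGGTG at 66 bases. Of 27025 RefSeq promoters, 1.17% held the NF-kappaB motif in this window, and Ltb was the 1 lymphocyte gene of 26 that did. The Blnk window held 1 E-box, 160 bases before the start on the opposite strand. The Il7r window held none of the 4 motifs as spelled here. GAGGAA was found in 9 of the 26 lymphocyte promoters and in 23.1% of all, TGTGGT in 7 of 26 and in 14.2% of all, and CAGGTG in 13 of 26 and in 17.1% of all. A match is a match of letters and does not show binding. Other spellings of these sites, such as other forms of the ETS site, were not searched.

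The probes behind the genes on which the results turn are 60 bases long, and the first 30 bases of each are given so that the measured transcript can be identified. Positions are those of the files, on build mm9, and no annotation on that build was used, so exon or UTR is not assigned.
Ltb probe, chr17:35333097-35333156: atctgtattcattcctggaggatcgactga
Il7r probe, chr15:9435976-9436035: atcaatcaactatgtttggatccagggaat
Blnk probe, chr19:41003428-41003487: acgaagtcatagctggggaggttcggttac
Cd8b1 probe, chr6:71287068-71287126: ggaccctggagaagactgcaaatcctcaca
Cd8a brighter probe, chr6:71327330-71327389: ttaggtatgtgtctttagtatagcatgctt
Cd8a dimmer probe, chr6:71328911-71328970: cctgaaggaactaagagtcacccatggtcc

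Among cytokine and chemokine receptors, grouped with Ltb, 2 of 6 genes were lower and all 6 were below 0. Of all measured genes 7.72% were lower and 53.9% were below 0. That is the background for each group of genes that follows under the same processing. Ltb encodes lymphotoxin beta, a membrane-bound TNF-family ligand of lymphocytes that organises lymphoid tissue. Its normalised signal, in arbitrary units that include an offset of 50 for every spot, was 305 on array 1 and 283 on array 2 with HMPA, against 1102 and 901 with adenine alone. The level was 3.39-fold lower with HMPA (log2 ratio −1.76 ± 0.09, where ± gives how far either array lay from the average of both). Il7r encodes the alpha chain of the interleukin 7 receptor, which keeps naive and memory T cells alive. Its signal was 95.5 and 75.99 with HMPA and 195 and 260 with adenine alone, a 2.64-fold lower level with HMPA (−1.40 ± 0.37). The arrays differed widely in size, at −1.03 on array 1 and −1.78 on array 2. Of the other 2 Il7r probes, 1 was above background in 1 of 4 channels and 1 in none, so neither gave a ratio.

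The other receptor genes of this group did not meet the rule. Il2rb, the beta chain shared by the receptors for interleukins 2 and 15, was −0.53 ± 0.15, with signals of 108 and 92.1 with HMPA and 140.3 and 147 with adenine alone. Il2rg, the common gamma chain that pairs with IL7R and IL2RB, was −0.19 ± 0.02. Ccr7, the receptor that guides T cells and dendritic cells into lymph nodes, was −0.28 ± 0.01 and was above background with HMPA on 1 of 2 arrays. Cxcr5, which guides cells into B cell follicles, was −0.05 ± 0.01, likewise above background with HMPA on 1 of 2 arrays. The partners of the 2 lower genes, named here after their values were seen, were near 0: Il7, the ligand of IL7R, at −0.01 ± 0.02, and Lta, which forms a trimer with LTB, at −0.02 ± 0.05. Both come from a list of 18 measured ligands with a median of −0.49, of which 4 were lower and 1 higher. Their signals are not given here, and the offset pulls ratios of dim genes toward 0.

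Of the 7 B cell genes, 5 were measured, all below 0, and 1 met the rule. Blnk, the adaptor that joins SYK to BTK and phospholipase C, had a signal of 2132 and 2200 with HMPA and 4907 and 4533 with adenine alone. It was 2.18-fold lower with HMPA (−1.12 ± 0.08), and each array showed it by about the same amount. Cd79b, a signalling chain of the B cell receptor, had signals of 154 and 171 with HMPA and 293 on each array with adenine alone (−0.85 ± 0.08), close to 2-fold but short of it. Btk had signals of 77.1 and 69.8 with HMPA and 124 and 121 with adenine alone (−0.74 ± 0.06). The Btk probe was printed 10 times on each array, and its spots ran between −0.80 and −0.52 on array 1 (SD 0.09, 10 spots) and between −0.98 and −0.68 on array 2 (SD 0.09, 9 reliable spots). Every reliable Btk spot was thus below 0, although repeat spots measure the same RNA and are not replicates.

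The remaining B cell genes were dim. Cd22, an inhibitory lectin of B cells, was not well above background with HMPA on either array. Its signals were 65.4 and 63.0 with HMPA and 88.2 and 85.2 with adenine alone. The bound was 1.35-fold lower with HMPA and here equals the ratio of these signals. Ms4a1, which encodes CD20, was −0.02 ± 0.03, with signals of 75.3 and 76.2 with HMPA and 78.1 and 75.9 with adenine alone. Cd79a, the other receptor chain, was above background in no channel, and the B cell factor Pax5 in 1 of 4. Of the B cell genes, Blnk, Btk, Cd79b and Ms4a1 were thus above background in all 4 channels, Cd22 with adenine alone, and Cd79a and Pax5 gave no ratio.

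Blnk, Btk and Il2rg are also made by myeloid cells. Of 14 macrophage marker genes, 13 met the rule as lower and none as higher, with a median log2 ratio of −2.05. Their summed signal was 16118 and 14742 with HMPA, against 93972 and 89245 with adenine alone, and all 14 were measured. Of 12 genes common to all leukocytes, 10 were lower, with a median of −1.54 and a summed signal of 6306 and 6406 with HMPA, against 19527 and 18724 with adenine alone. The part that these cells have in the Blnk, Btk, Il2rg, Ltb and Il7r ratios was not tested.

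None of the 10 genes of the T cell receptor complex and its coreceptors met the rule, and 8 of the 10 were below 0. Of the CD3 chains, Cd3d had signals of 125 and 122 with HMPA and 196 and 179 with adenine alone (−0.60 ± 0.05), and Cd3g 115 and 105 with HMPA and 143 and 154 with adenine alone (−0.43 ± 0.12). The 2 values per condition were taken as readings of 1 RNA sample, not as replicates. Cd3e (−0.09 ± 0.02) and Cd247, the zeta chain (−0.10 ± 0.06), were dim in both conditions, with no signal above 81.7 for Cd3e or 74.0 for Cd247. Cd6, a scavenger-type coreceptor of T cells, had 180.5 and 179.7 with HMPA and 334 and 274 with adenine alone (−0.75 ± 0.14). A second Cd6 probe, above background on array 2 only and so not kept, was 0.05 ± 0.02. Cd5, a related coreceptor that restrains the receptor signal, was −0.29 ± 0.04 by its brighter probe and −0.80 ± 0.13 by the other. Cd2, an adhesion receptor, was −0.10 ± 0.04, and Cd4 was 0.08 ± 0.03, above background on 2 of 2 arrays with HMPA and 1 of 2 with adenine alone. The Cd4 probe was printed 10 times, with medians of 0.14 over 10 spots on array 1 and 0.03 over 9 reliable spots on array 2.

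The 2 chains of CD8, the coreceptor of cytotoxic T cells, went opposite ways. Cd8b1 had signals of 97.01 and 100.4 with HMPA and 214 and 161 with adenine alone (−0.91 ± 0.23). Cd8a had 179 and 156 with HMPA and 87.0 and 112 with adenine alone (0.76 ± 0.28), the highest ratio of any measured lymphocyte gene. Neither gene met the rule of at least 2-fold. The second measured Cd8a probe, printed 10 times, was 0.13 ± 0.05 by the mean of its spots, with spot values between 0.11 and 0.29 on array 1 (7 reliable spots) and between −0.14 and 0.25 on array 2 (10 spots). With Feature Extraction's own ratios Cd8a was 1.49 and Cd8b1 −1.59, and both met the rule.

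Genes of the next signalling steps were below 0 without meeting the rule. Lck, the SRC-family kinase bound to CD4 and CD8, had signals of 109 and 100.2 with HMPA and 143 and 178 with adenine alone (−0.61 ± 0.22). Zap70, the kinase that binds the phosphorylated CD3 chains, was −0.25 ± 0.18, at −0.06 on array 1 and −0.43 on array 2. Of the 4 costimulation and checkpoint genes, Cd28 and Ctla4 were above background in no channel. Icos was −0.07 ± 0.04. Cd27 was not well above background with HMPA, and its bound of 1.02-fold lower equals the ratio of its own signals. These were 61.2 and 59.3 with HMPA and 62.6 and 60.6 with adenine alone. These last signals lie close to the offset, and so small a ratio could not be resolved at this signal.

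Of the 6 cytotoxic and NK genes, 5 were measured and none met the rule. Klrd1, encoding CD94, a partner of the NKG2 receptors, had 87.2 and 88.2 with HMPA and 114 and 113 with adenine alone (−0.37 ± 0.01). Nkg7, a protein of the cytotoxic granule, was −0.17 by its brighter probe and −0.12 ± 0.26 by the other, which had opposite signs on the arrays. Klrb1c, the NK1.1 receptor, was −0.06 ± 0.04 and Gzmb, granzyme B, −0.08 ± 0.01. Gzma, granzyme A, stood on the other side of 0, with signals of 84.1 and 79.95 with HMPA and 67.4 and 69.0 with adenine alone (0.27 ± 0.05). Prf1, perforin, was above background in 1 of 4 channels and gave no ratio.

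The lineage factors were also short of the rule. Gata3, which drives type 2 helper T cells and is made by the collecting duct as well, had signals of 455 and 376 with HMPA and 633 and 611 with adenine alone (−0.59 ± 0.11). Genes of the collecting duct and connecting tubule ran the other way: 9 of 10 were above 0, 3 met the rule as higher, the median was 0.76, and the summed signal was 16361 and 15951 with HMPA, against 5710 and 6064 with adenine alone. Their part in the Gata3 ratio was not tested. Tbx21, the factor of type 1 helper T cells and NK cells, was −0.14 ± 0.09. Foxp3, the factor of regulatory T cells, was above background in 1 of 4 channels.

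**Figure D2:**
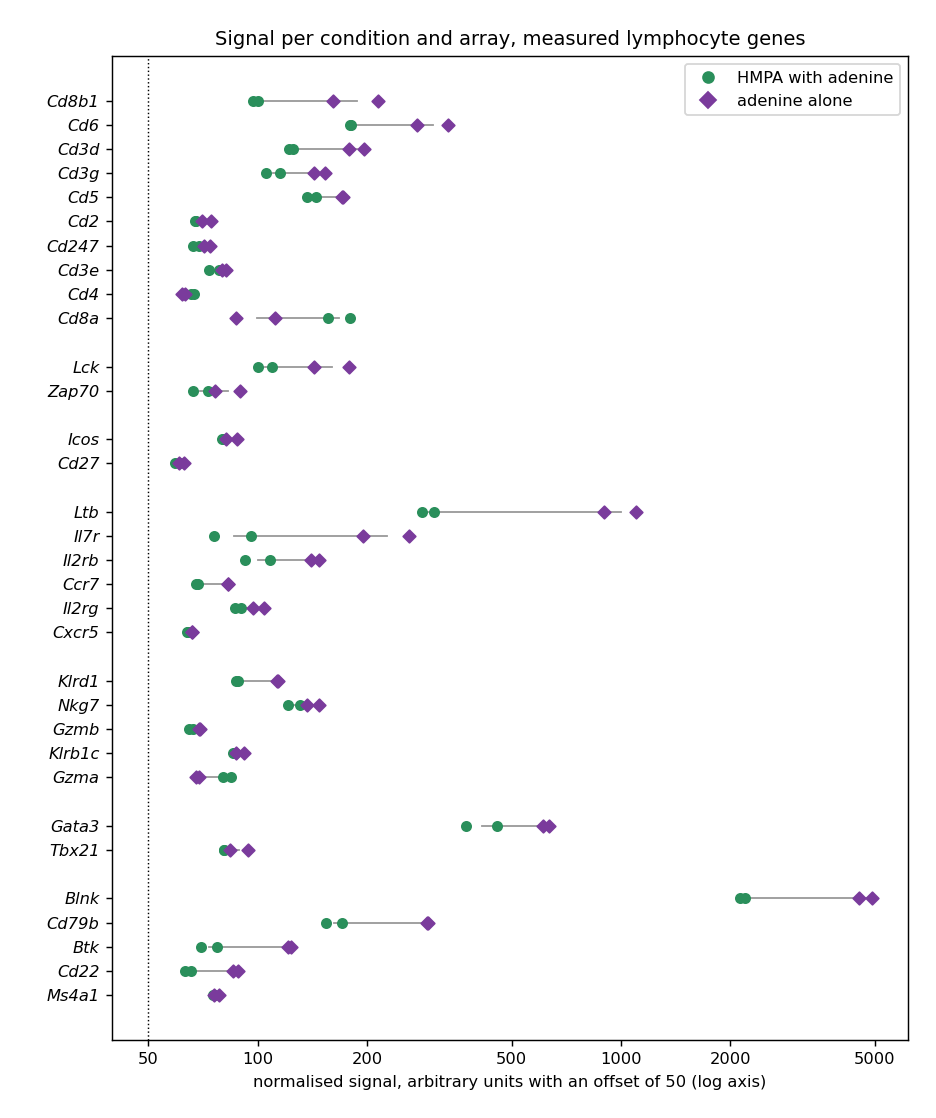
Normalised signals of the 32 measured lymphocyte genes are drawn on a log axis, with 1 circle per array for HMPA with adenine and 1 diamond per array for adenine alone, and a line joins the means of the conditions. The dotted line marks the offset of 50 that every spot carries. Most genes sit close to it, while Ltb, Gata3 and Blnk lie well to the right. Levels of different genes come from different probes and are not comparable with each other.

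Most of these transcripts were dim, which limits what the ratios can show. When all measured genes were ranked by mean signal and divided into 3 equal groups of 5566 (dim, middle and bright), 24 of the 32 lymphocyte genes fell in the dim group, 7 in the middle and 1, Blnk, in the bright one. Among the dim genes 0 of the 24 lymphocyte genes met the rule, against 0.934% of all dim genes as lower and 1.13% as higher. Among the middle genes Ltb and Il7r of the 7 lymphocyte genes were lower and 0 were higher, against 10.8% lower and 6.23% higher of all middle genes. These 7 were all below 0, against 54.9% of all middle genes, and their median was −0.75, against −0.07. Of the 24 dim lymphocyte genes 21 were below 0, against 56.1% of all dim genes, and their median was −0.12, against −0.03. Among the bright genes, where Blnk stood alone, 11.4% were lower and 12.6% higher. A weaker criterion of at least 1.5-fold lower on both arrays was met by 7 of the 32 genes (21.9%) and by 12.7% of all measured genes. These 7 were Ltb, Il7r, Blnk, Cd8b1, Cd79b, Cd6 and Btk.

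**Figure D3:**
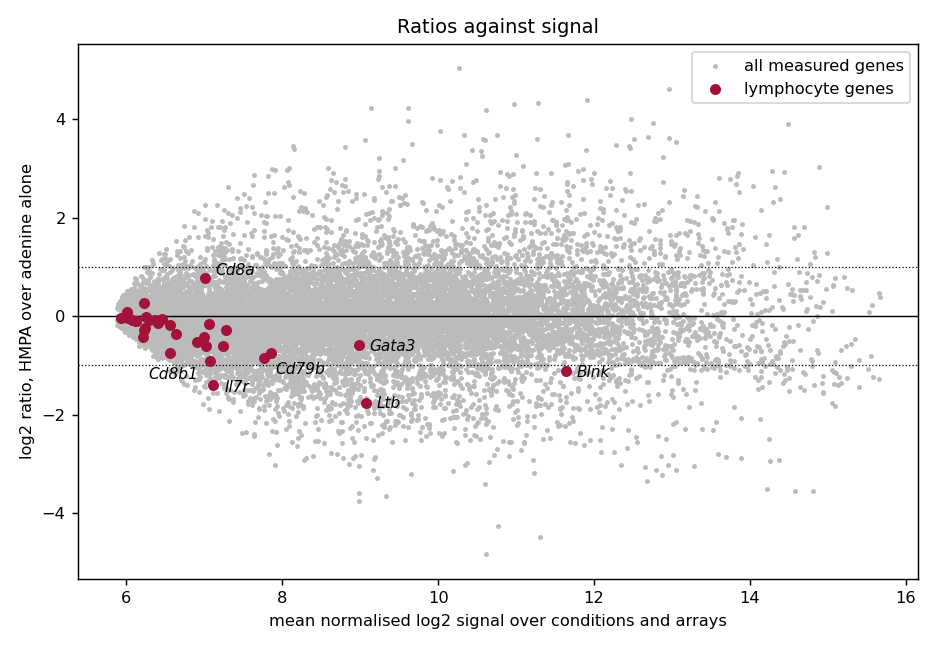
The log2 ratio of HMPA over adenine alone is plotted against the mean normalised log2 signal for all 16698 measured genes in grey and the 32 lymphocyte genes in red. Dotted lines mark 2-fold. The spread of all genes narrows toward the left, where 24 of the lymphocyte genes lie.

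The ratios of dim genes depended on how background was handled. The offset of 50 pulls ratios of dim spots toward 0, while Feature Extraction's own ratios, also deposited, carry no such offset. For the dim gene Cxcr5 they were −1.03 on array 1 and 0.45 on array 2. With those ratios 9 of the 32 genes were lower (28.1%, against 14.7% of all measured genes) and 2 were higher (6.25%, against 12.2%). Il7r was −2.66, Cd22 −2.30, Btk −2.22, Ltb −1.96, Cd8b1 −1.59, Ccr7 −1.51, Blnk −1.10, Cd79b −1.06 and Zap70 −1.03. The 2 higher genes were Cd8a and Gzma, at 1.49 and 1.15. Of these 11 genes Ltb and Blnk moved least between the processings, and Cd22 and Btk moved most.

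**Figure D4:**
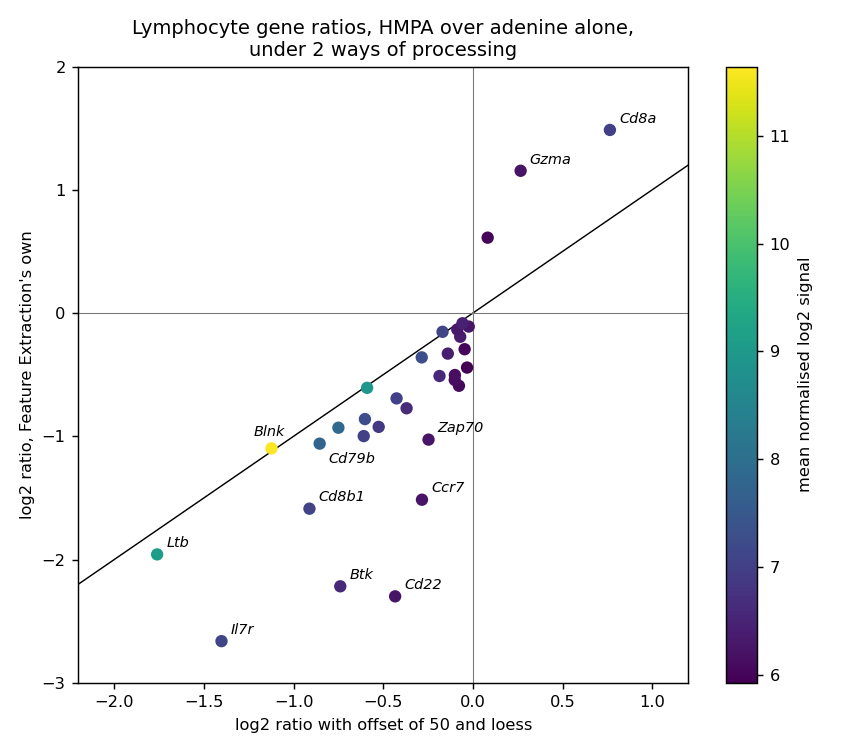
Each point is 1 of the 32 measured lymphocyte genes, with the log2 ratio after offset and loess on the horizontal axis and Feature Extraction's own log2 ratio on the vertical axis. Colour gives the mean normalised log2 signal, and the diagonal marks equal values. Blnk and Ltb lie near the diagonal, and the dark points of Btk, Cd22 and Ccr7 lie far below it.

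Lists of related genes outside the 38 had medians between −0.49 and −0.19 with offset and loess, and between −0.93 and −0.45 with Feature Extraction's ratios. Of 22 measured genes of T cell receptor signalling, 5 were lower and 1 higher (median −0.24). Thy1, a surface protein of mouse T cells that fibroblasts also carry, was −2.52 ± 0.52 and the adaptor Lcp2 was −1.44 ± 0.21. Sla, an adaptor that dampens receptor signalling, was −1.81 ± 0.01. Thy1 and Sla each had a second measured probe nearer 0, at −0.43 for Thy1 and −0.22 for Sla. With the mean over probes Thy1 was −1.47 and Sla −1.02, and both still met the rule.

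Of 27 measured T cell cytokine, receptor and lineage genes, 3 were lower and 0 higher (median −0.31), among them the interleukin 18 receptor chain Il18r1 (−1.25 ± 0.30) and Havcr2, encoding TIM-3 (−1.15 ± 0.19). On array 1 alone Il18r1 (−0.94) and Havcr2 (−0.97) fell short of the rule, and with Feature Extraction's ratios they were −2.59 and −1.80. Ifng, Il4, Il17a and Il2ra were among the 15 genes of that list with no measured probe. Of 11 measured NK and cytotoxic genes, 1 was lower, the granule proteoglycan Srgn (−1.86 ± 0.31), which myeloid cells also make (median −0.19). Of 26 measured B and plasma cell genes, 3 were lower and 1 higher (median −0.37). Sdc1, a syndecan of plasma cells and epithelia, was −2.02 ± 0.20, Cd24a −1.78 ± 0.06 and Cd72, a B cell coreceptor, −1.07 ± 0.07. Cd55, a complement regulator of many cell types, was 2.11 ± 0.15, with a second probe at 0.19. Cd72 on array 2 alone was −0.996, short of 2-fold.

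Of 18 measured ligands of lymphocyte receptors, 4 were lower and 1 higher (median −0.49). Cxcl13, the ligand of CXCR5 that draws B cells, was −1.94 ± 0.16 and −4.11 with Feature Extraction's ratios. Cxcl16, the ligand of CXCR6, was −1.41 ± 0.29, with a second probe at −1.06. Tnfsf13b, the B cell survival factor BAFF, was −1.41 ± 0.14, and −0.84 with the mean over its 2 probes, short of the rule. Cxcl12, which attracts lymphocytes through CXCR4, was higher (1.34 ± 0.16), with a second probe at 0.97. These counts stand beside the same background of 7.72% lower and 6.64% higher. Feature Extraction's ratios, with their background of 14.7% lower and 12.2% higher, gave more lower genes in 4 of these 5 lists. They put 12 of 26 B and plasma cell genes lower, 11 of 27 T cell cytokine, receptor and lineage genes, 5 of 11 NK and cytotoxic genes and 7 of 18 ligands. The count for T cell receptor signalling was 5 of 22 under both. The highest count of higher genes in any of these lists was 2, among the ligands.

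The kidney itself was recognised by its markers. All 8 proximal tubule genes and all 5 podocyte genes were measured, with 7 of the proximal tubule genes higher with HMPA (median 2.66) and 1 podocyte gene, Synpo, lower (median −0.09). Synpo (−1.04 ± 0.10) had a second probe at 0.06. It missed the rule when its probes were averaged (−0.49) and when array 1 was read by itself (−0.94). The lymphocyte median of −0.27 lay between those of endothelial genes (−0.15, 7 genes, none meeting the rule) and dendritic cell genes (−0.50, 1 of 5 lower). The lower dendritic gene was Itgax (−1.58 ± 0.29), which had a second probe at −0.09 and fell short of the rule with the mean over probes (−0.84). Neutrophil genes had a median of −1.26 (4 of 6 lower, with Camp, Elane, Ly6g and Ngp unmeasured), and mast cell and basophil genes one of 0.01 over 3 measured genes. With Feature Extraction's ratios the neutrophil median was −3.13, with 5 of 6 lower, and the podocyte and mast cell medians changed sign, to 0.01 and −0.02. The differences between these lists were not tested, since each is 1 ratio of 2 RNA samples. The lists also differ in brightness, with a median log2 signal of 6.56 for lymphocyte, 8.40 for endothelial and 9.37 for macrophage genes. The offset pulls dim ratios toward 0, so these medians are not compared at equal signal. With Feature Extraction's ratios they were −0.60 for lymphocyte, −0.26 for endothelial, −0.82 for dendritic cell and −2.24 for macrophage genes.

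**Figure D5:**
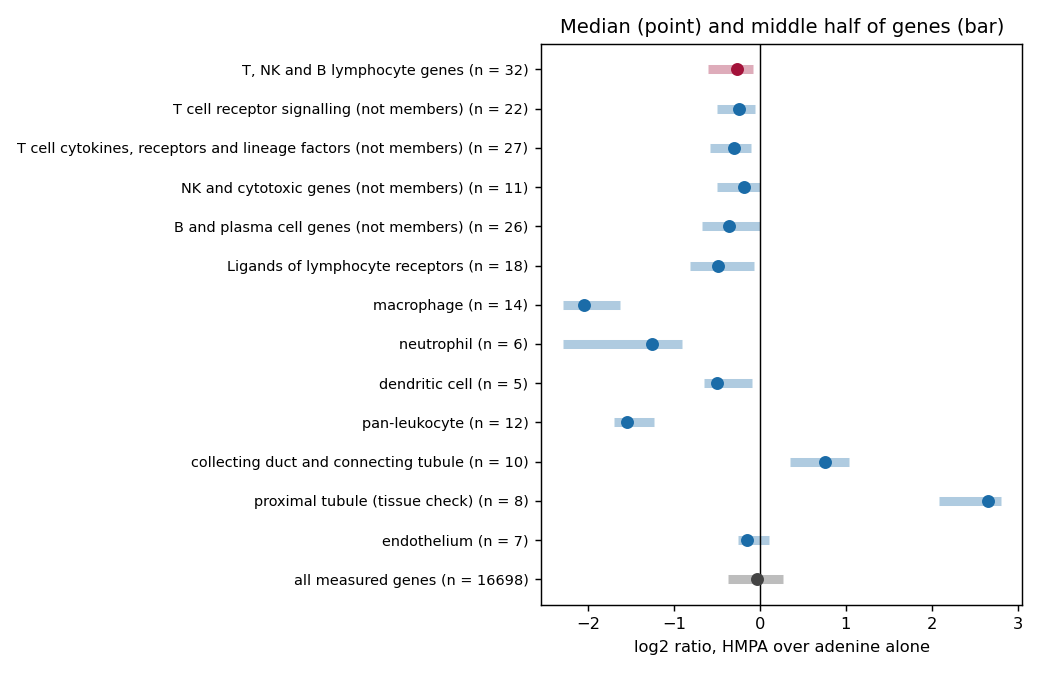
Medians (points) and interquartile ranges (bars) of the log2 ratios of HMPA over adenine alone are drawn for the lymphocyte genes, the related lists, marker lists of other cells and all measured genes. The lymphocyte genes lie at −0.27 and their related lists between −0.49 and −0.19, while the macrophage list lies at −2.05 and the pan-leukocyte list at −1.54. The lists differ in brightness, and the offset pulls ratios of dim genes toward 0.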

How the data were processed

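Kidney RNA of both conditions was hybridised on 2 Agilent dual-colour arrays, with HMPA in Cy5 on array 1 and in Cy3 on array 2 per the labels. The authors deposited each spot's signal and local background as intensity, quantified with Feature Extraction 12.2.0.7 per the file headers (9.5 per the submitters' processing notes). The deposited ratio is log10 of red over green, background-subtracted and dye-normalised per the file headers, and the deposited value table repeats it within 0.00499, with a median of 0 on each array. Each array held 43379 gene spots, of which 281 and 297 were unreliable and none saturated. Signal over background sets the precision: 57.9% to 67.9% of spots were well above background, and a probe printed several times needed 0.5 of its spots to be. The number of arrays limits every value.

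In R 4.3.3 with limma 3.58.1, background was corrected by normexp with an offset of 50, ratios were normalised by loess, turned to HMPA over adenine alone and averaged per probe. The brightest kept probe stood for a gene (25138 of 41174 probes were kept). Signals per condition followed Aquantile scaling. Names came from a RefSeq table by accession for 21374 kept probes, by symbol for 1932, by older symbol for 8, and from the file for 1824. Array ratios correlated with r = 0.889 across genes, which are not replicates, and the rule of size applied to the dye contrast gave 0 genes. A gene dim with HMPA was given as a bound against the higher of the background floor and its own signal. For Cd22 and Cd27 their own signal was higher on both arrays, so the bound equals the measured ratio. The procedure was tested on simulated data in which the known changes lay only in probes of median signal or brighter. Recovery of changes in dimmer probes was not tested. Alternatives covered the normalisation, the background, the probe, the filter and each array. The members and lists were chosen with earlier results of these data known. All 38 members are accounted for, and up to 4 genes of each related list that met the rule are named, by size, except for 2 results that are not reported here.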

Additional observations from a re-analysis of the deposited data

How the results depend on the processing

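Ltb, Il7r and Blnk met the size rule as lower under all 9 alternatives. Under 6 of them 29 of 32 ratios were below 0. The count was 23 of 25 with all 4 channels above background and 28 of 32 on array 2 alone. With no filter on dim probes it is left out, since genes at background enter it. Lower lymphocyte genes numbered 6 with median centring, 9 by Feature Extraction, 6 without background correction and 7 with an offset of 10, and 3 or 4 on a single array. Higher ones numbered 2 with Feature Extraction's ratios and 1 with an offset of 10, and 0 or 1 on a single array, the 1 on array 1 being Cd8a. Cd8b1 and Cd79b met the rule as lower under all 4 of these processings, Btk under the last 3 and Cd6 with median centring. The median of the lymphocyte genes was −0.42 with median centring, −0.60 by Feature Extraction, −0.44 with the smaller offset, −0.15 with no filter and −0.37 with all 4 channels above background, and between −0.31 and −0.21 on single arrays. Median centring moved the median of all genes to −0.22, so relative to it the lymphocyte median was −0.20, against −0.23 with loess. It also moved the higher share of all genes that met the rule to 27.5%, against 46.2%. Over all genes, 1973 were lower with median centring, and by Feature Extraction 2461 were lower and 2043 higher, against 1289 and 1109. On single arrays between 1280 and 1484 genes were lower and between 1154 and 1253 higher. Of 281 single-gene values under the alternatives, 1 changed sign, Ms4a1 on array 2 alone (0.01). The cause of these shifts was not tested. Each ratio pairs both conditions on 1 array, but no paired test was possible because the arrays were taken as 1 RNA sample per condition.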
